A study of Homo sapiens with 18 samples.

Results

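The cellular oxygen-sensing machinery was followed in PC3 cells through 10 of the 20365 genes in each expression table. These genes were chosen by symbol for their role, with earlier results of these data known. They encode the HIF alpha subunits (HIF1A, EPAS1, HIF3A), the beta subunits (ARNT, ARNT2), the ubiquitin ligase receptor VHL, and the oxygen-dependent hydroxylases (EGLN1, EGLN2, EGLN3, HIF1AN). All 10 are in both tables, and 9 passed a filter on low values, set at an average of 10 normalised counts across the 9 libraries of its table. HIF3A did not pass in either experiment and entered no test.

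Hypoxia-inducible factors are dimers of an alpha and a beta subunit that switch on genes of glucose use, blood vessel growth and red cell formation when oxygen is low. When oxygen is plentiful, prolyl hydroxylases mark the alpha subunits, VHL binds the mark, and a cullin ligase that is built on the Elongin B and Elongin C adaptor proteins ubiquitinates them for destruction. VHL carries a BC-box, the short helix through which such receptors grip Elongin C, and loss of VHL is best known from clear cell kidney cancer. This control acts on protein, whereas the measurements here are of mRNA.

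The cells were PC3, an established prostate cancer line, and 18 RNA libraries fell into 6 groups of 3. For the knockdowns, a lentivirus delivered a short hairpin RNA that targets Elongin B (EloB KD), one that targets Elongin C (EloC KD), or that of the control knockdown (Control KD), to cells kept in 10% serum. In the peptide experiment, cells in 2.5% serum were exposed for 24 h to 12.5 µM of a BC-box peptide in its wild-type form (WT peptide), a mutated form (Mutant peptide) or a scrambled form (Scrambled peptide). Every group of the first experiment, Control KD included, was made with a lentiviral vector, and every group of the second received a peptide, so neither experiment has an untouched group here. The labels used here name neither the hairpin sequences and their number, nor the peptide sequences, nor the oxygen level. Replicates are numbered 1 to 3 and are not described as separate cultures, so p-values measure only the spread between these samples, which may be technical. The 2 experiments were normalised separately and differ in serum, and no test was made between them. All samples are bulk RNA, in which fewer cells of a kind and less RNA per cell cannot be told apart.

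Libraries held 40.3 to 57.2 M reads assigned to genes in the knockdown experiment and 31.7 to 34.7 M in the peptide experiment. The targeted genes followed the labels: ELOB averaged 537 ± 59.0 normalised counts in EloB KD and 3898 ± 1177 in Control KD, and ELOC averaged 516 ± 36.6 in EloC KD and 4480 ± 355 in Control KD (SD, n = 3 each). Keratin 8 (KRT8), an epithelial marker, lay between 1981 and 4182 normalised counts in the knockdown libraries and between 2082 and 2688 in the peptide libraries. KLK3, which encodes prostate-specific antigen, was at 0 in all 18 libraries. Of 6 markers of other cell types, PTPRC, DCN and VWF stayed at or below 17.2 in every library, and COL1A2 at 36.4 to 257. PECAM1 (690 to 2239) and COL1A1 (183 to 2464) were well above 0; their part in the results was not tested. Below, levels are DESeq2-normalised read counts given for replicates 1, 2 and 3, or as mean ± SD. Log2 fold changes carry their standard error, each adjusted p is from limma, adjusted by Benjamini-Hochberg across every gene tested, a gene is called at an adjusted p under 0.05, and n is 3 per group throughout.

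The genes differed widely in abundance, and their order was much the same in every group. Per kilobase of annotated exon, HIF1A was the most abundant of the 10 in all 6 groups, with 2852 ± 172 normalised counts per kb in EloB KD, 4947 ± 655 in EloC KD and 4847 ± 875 in Control KD. VHL came next in all 6 groups, at 1319 ± 76.5 in EloB KD, 1292 ± 83.5 in EloC KD and 1332 ± 116 normalised counts per kb in Control KD. ARNT and EPAS1 held ranks 3 and 4, and their ranges per kb overlapped in EloB KD, Control KD, WT peptide and Scrambled peptide. In EloC KD they were separate and EPAS1 was the higher, with 1005 ± 129 normalised counts per kb for EPAS1 and 442 ± 45.6 for ARNT. HIF1AN stood at rank 5 in all 6 groups. EGLN3 and EGLN1 followed, and their ranges per kb overlapped in all 3 peptide groups. At the low end, ARNT2 and EGLN2 overlapped per kb in Control KD, Mutant peptide and Scrambled peptide, while in EloB KD ARNT2 stood above EGLN1 (80.3 ± 17.2 against 54.7 ± 0.960 normalised counts per kb). HIF3A was last in every group. With the longest transcript as the length instead of all exons, some neighbouring ranks changed places: ARNT and EPAS1 in EloB KD, WT peptide and Scrambled peptide, HIF1AN and EGLN3 in EloC KD and Control KD, EGLN1 and EGLN3 in WT peptide, and ARNT2 and EGLN2 in Control KD.

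**Figure D1:**
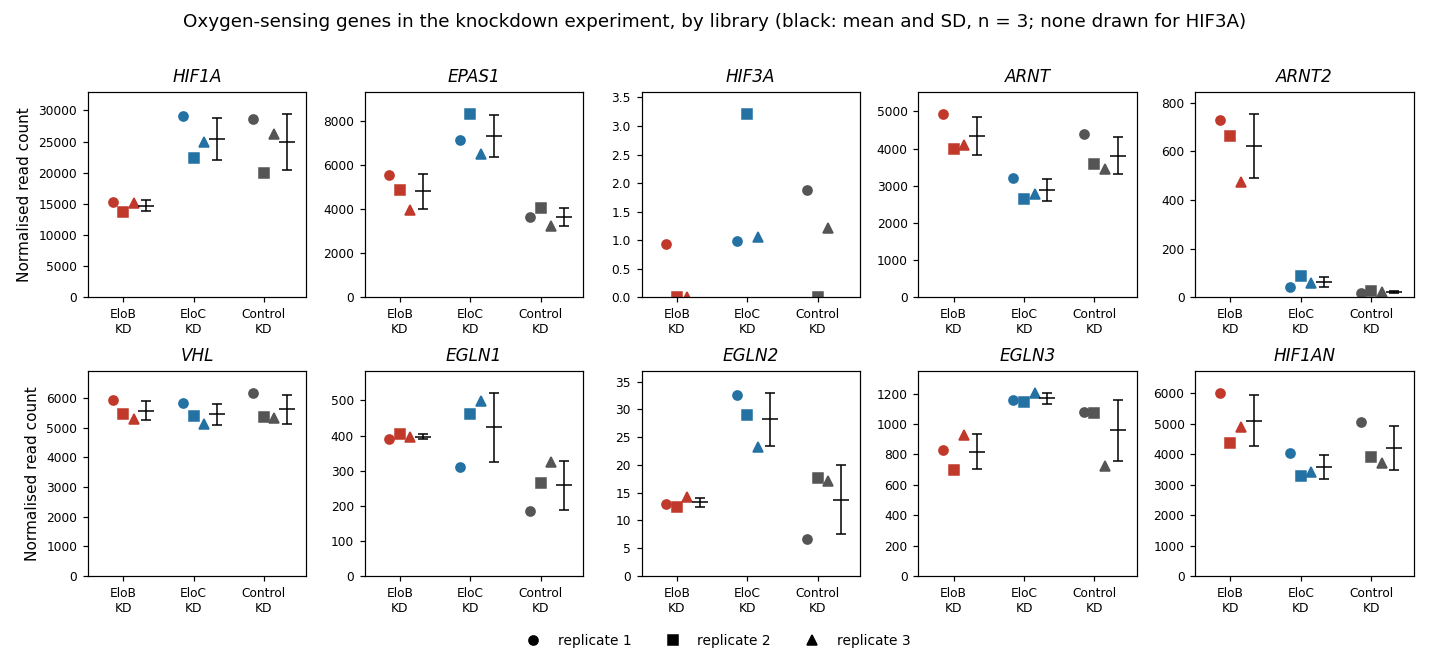
Normalised read count (vertical axes, linear and starting at 0, a scale for each gene) of the 10 oxygen-sensing genes in the 9 knockdown libraries, grouped from left to right as EloB KD, EloC KD and Control KD. Symbols are replicates 1 to 3 and black bars the mean and SD; HIF1A is low in all 3 EloB KD libraries, ARNT2 is high in them, EPAS1 is highest in EloC KD, and VHL is level across the groups.

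Of the alpha subunits, HIF1A was called as lower in EloB KD and EPAS1 as higher in EloC KD. HIF1A encodes HIF-1alpha, the widely expressed alpha subunit, and lies on chromosome 14 at 61695513 to 61748259 (GRCh38, plus strand). It had 15283, 13676 and 15115 normalised counts in EloB KD, against 28683, 19958 and 26265 in Control KD. All 3 EloB KD libraries lay below all 3 Control KD libraries, although Control KD replicate 2 was well under its fellows. HIF1A fell 1.68-fold in EloB KD (log2 fold change -0.75 ± 0.14, adjusted p 0.00444 in limma). Without replicate 3 of every group the log2 fold change was -0.73 and the call was lost (adjusted p 0.0761). In EloC KD, HIF1A had 29068, 22369 and 25006 normalised counts, which overlap those of Control KD. The log2 fold change of EloC KD over Control KD was 0.04 ± 0.14 with a 95% interval of -0.27 to 0.35, and HIF1A was not called (adjusted p 0.851). Set directly against EloC KD, EloB KD had less HIF1A (log2 fold change -0.79 ± 0.14, adjusted p 0.00115), so the response of HIF1A differed between the knockdowns. In the GENCODE annotation used here 2.9% of the exon bases of HIF1A are shared with another gene on its strand and 2.3% lie opposite an antisense gene. The strand setting of the counting is not given in the sources used here, so reads of such partners cannot be told apart from those of HIF1A.

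EPAS1 encodes HIF-2alpha, the alpha subunit known from endothelium and from kidney cancer, and lies on chromosome 2 at 46293667 to 46386703 (plus strand). In EloC KD its normalised counts were 7161, 8351 and 6497, whereas Control KD had 3657, 4065 and 3257. The lowest EloC KD library stood above the highest Control KD library by a wide gap. EPAS1 rose 2.00-fold in EloC KD (log2 fold change 1.0 ± 0.14, adjusted p 0.000332 in limma), and it was called in every alternative tried. In EloB KD the counts were 5581, 4869 and 3986, of which the last lies inside the range of Control KD. The log2 fold change of EloB KD over Control KD was 0.39 ± 0.14, with an interval of 0.08 to 0.70, and was not called (adjusted p 0.0763 in limma). With the replicate number as a block it passed (adjusted p 0.00659), as it did in DESeq2 (log2 fold change 0.40, adjusted p 0.0399), with quantile scaling (0.47, adjusted p 0.0364) and without EloB KD replicate 3 (0.52, adjusted p 0.0343). EloB KD had less EPAS1 than EloC KD (log2 fold change -0.61 ± 0.14, adjusted p 0.00465 in limma). Both comparisons with a knockdown use the same Control KD libraries.

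The promoters of the 2 alpha subunits that moved are shown with that of EGLN1, one of the 2 hydroxylases called as higher in EloC KD, because the first promoter window of each holds a single copy of the core of the hypoxia response element, the short sequence that HIF dimers bind. The windows run from 250 bases before to 50 bases after a RefSeq transcript start (GRCh38.p14), read along the strand of the gene. They are chr14:61695263-61695562 on the plus strand for HIF1A, chr2:46297157-46297456 on the plus strand for EPAS1 and chr1:231422238-231422537 on the minus strand for EGLN1. Capitals mark ACGTG or GCGTG, searched on both strands.
HIF1A: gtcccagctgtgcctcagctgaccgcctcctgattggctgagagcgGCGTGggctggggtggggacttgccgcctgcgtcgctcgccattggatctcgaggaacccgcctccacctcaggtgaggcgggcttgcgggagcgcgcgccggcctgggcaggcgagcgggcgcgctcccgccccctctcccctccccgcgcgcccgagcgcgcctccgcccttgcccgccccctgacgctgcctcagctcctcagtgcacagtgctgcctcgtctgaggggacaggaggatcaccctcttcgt
EPAS1: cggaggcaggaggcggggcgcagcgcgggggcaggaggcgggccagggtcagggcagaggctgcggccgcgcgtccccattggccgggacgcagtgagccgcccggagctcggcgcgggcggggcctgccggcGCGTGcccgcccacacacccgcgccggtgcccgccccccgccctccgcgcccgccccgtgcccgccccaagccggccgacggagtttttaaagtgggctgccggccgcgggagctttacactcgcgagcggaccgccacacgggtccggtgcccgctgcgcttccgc
EGLN1: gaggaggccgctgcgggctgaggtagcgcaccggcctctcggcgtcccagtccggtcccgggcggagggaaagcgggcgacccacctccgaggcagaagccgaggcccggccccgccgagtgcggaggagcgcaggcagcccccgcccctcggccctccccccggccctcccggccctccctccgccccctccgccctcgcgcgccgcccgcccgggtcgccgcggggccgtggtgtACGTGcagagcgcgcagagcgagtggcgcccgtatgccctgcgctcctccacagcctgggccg

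The motif starts at position -204 from the transcript start in HIF1A, at -117 in EPAS1 and at -13 in EGLN1. RefSeq promoters matched 8 of the 10 genes, with 12 windows in all. ARNT2 and VHL had no window, so the motif could not be looked for there. No copy was found in the windows of ARNT, EGLN3 and HIF1AN, nor in the other window of HIF1A. One window of EGLN2 has a CACGTG, which holds ACGTG on both strands, and its other window has no copy. The first window of HIF3A has 3 copies of GCGTG, and its other 2 windows have none. Either motif was present in 48.4% of all 35116 promoter windows of this length, so a single copy is common. A match is a description of these letters and not a binding site.

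HIF3A encodes HIF-3alpha, whose short isoforms are known to restrain the other alpha subunits, and it was barely read in these cells. It had 1, 0 and 0 reads in EloB KD, 1, 3 and 1 in EloC KD and 2, 0 and 1 in Control KD. In the peptide experiment there was 1 read in WT peptide replicate 3 and none in the other 8 libraries. Changes of HIF3A could not be measured at this depth.

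**Figure D2:**
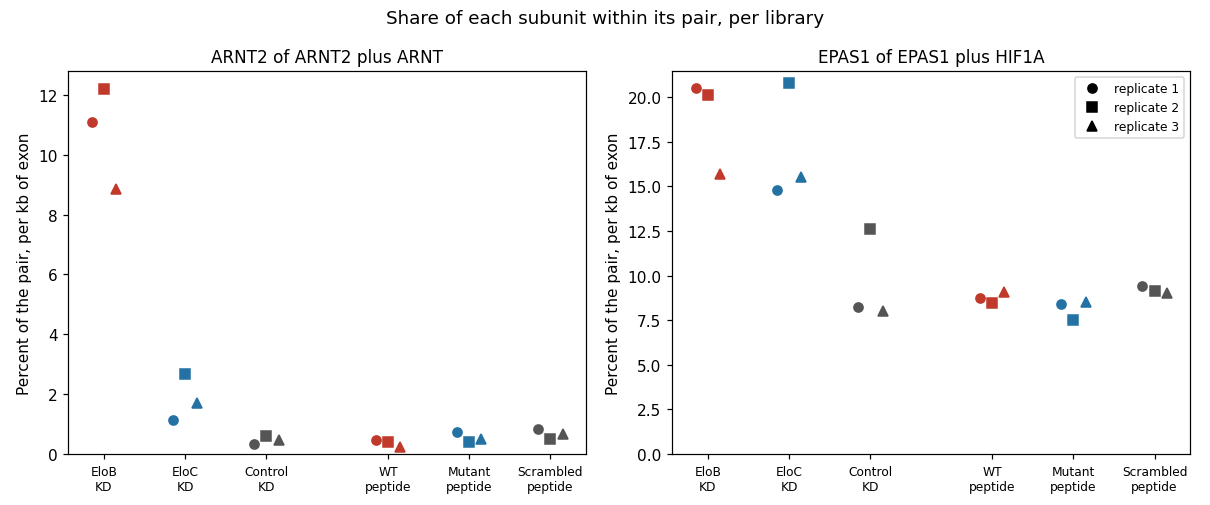
Share of ARNT2 within ARNT2 plus ARNT (left) and of EPAS1 within EPAS1 plus HIF1A (right), in percent of normalised counts per kb of exon, for the 3 libraries of each of the 6 groups; symbols are replicates. ARNT2 makes up 8.85% to 12.2% of its pair in EloB KD and under 3% in all other groups, and the EPAS1 share of the knockdown libraries is lowest in Control KD.

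Within the alpha pair the balance shifted towards EPAS1 in both knockdowns, as a description that combines the values above. Per kb, EPAS1 made up 20.5%, 20.1% and 15.7% of EPAS1 plus HIF1A in EloB KD, 14.8%, 20.8% and 15.5% in EloC KD, and 8.25%, 12.6% and 8.04% in Control KD. Every knockdown library thus had a larger EPAS1 share than every Control KD library. Of its components, limma called HIF1A as lower in EloB KD, where the EPAS1 log2 fold change of 0.39 was called only in some alternatives, and EPAS1 as higher in EloC KD. In the peptide experiment the share was 8.48% to 9.05% with WT peptide, 7.53% to 8.49% with Mutant peptide and 9.01% to 9.42% with Scrambled peptide.

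ARNT2 showed the widest range of group means of the 9 tested genes in the knockdown experiment. It encodes a beta subunit best known from the developing brain and hypothalamus, which pairs with SIM1 and can stand in for ARNT beside HIF-1alpha. The gene lies on chromosome 15 at 80404350 to 80597937 (plus strand). It had 731, 661 and 473 normalised counts in EloB KD, 43.5, 86.8 and 57.9 in EloC KD, and 17.9, 26.3 and 19.5 in Control KD. The 3 groups did not overlap, with EloB KD far above both others. The increase in EloB KD was 27.9-fold with a 95% interval of 18.2 to 42.8 (log2 fold change 4.80 ± 0.28, adjusted p 1.27e-05 in limma). ARNT2 also rose in EloC KD, by 2.79-fold (log2 fold change 1.48 ± 0.28, adjusted p 0.00184). The direct comparison of EloB KD with EloC KD gave a 9.99-fold higher level in EloB KD (log2 fold change 3.32 ± 0.28, adjusted p 1.45e-05). The Control KD values rest on 16 to 30 reads per library, so the size of the fold change is less sure than its direction. When 1 library, or replicate 3 of every group, was left out, the log2 fold change of EloB KD over Control KD stayed between 4.67 and 4.99 and that of EloC KD between 1.22 and 1.71, all of them called.

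ARNT, also called HIF-1beta, is the usual partner of both alpha subunits and of the aryl hydrocarbon receptor, and lies on chromosome 1 at 150809705 to 150876768 (minus strand). It had 4940, 3993 and 4104 normalised counts in EloB KD, 3217, 2649 and 2781 in EloC KD, and 4399, 3578 and 3464 in Control KD. EloC KD lay below both other groups in every library, and EloB KD overlapped Control KD. ARNT fell 1.32-fold in EloC KD (log2 fold change -0.40 ± 0.12, adjusted p 0.0243 in limma). This call was lost without Control KD replicate 1, without EloC KD replicate 2 or 3, or without replicate 3 of every group, with log2 fold changes of -0.29, -0.34, -0.38 and -0.44 and adjusted p-values up to 0.0907. In EloB KD the log2 fold change was 0.19 ± 0.12 with an interval of -0.08 to 0.46, not called in limma (adjusted p 0.311) but passing with the replicate block (adjusted p 0.0417). EloB KD had more ARNT than EloC KD (log2 fold change 0.59 ± 0.12, adjusted p 0.00301 in limma).

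Even where ARNT2 was highest it remained the minor beta subunit. Per kb, ARNT2 made up 11.1%, 12.2% and 8.85% of ARNT2 plus ARNT in EloB KD, 1.13%, 2.69% and 1.72% in EloC KD, and 0.341%, 0.616% and 0.471% in Control KD. The shares of the 3 groups did not overlap. The 5 genes whose profile over the 9 knockdown libraries was most like that of ARNT2 were MTTP (Pearson r 0.988), FAM227B (0.984), ITSN1 (0.984), MPC1 (0.978) and FZD8 (0.978). These coefficients are descriptions over 9 libraries that form 3 groups and share 1 normalisation. The log2 fold changes of the 5 genes were much smaller, at 0.51 to 1.09 in EloB KD and 0.11 to 0.45 in EloC KD, each over Control KD.

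VHL, the receptor that joins hydroxylated alpha subunits to Elongin B and Elongin C, lies on chromosome 3 at 10141008 to 10152220 (plus strand) and had the narrowest range of group means of those 9 genes. It had 5919, 5458 and 5298 normalised counts in EloB KD, 5820, 5392 and 5123 in EloC KD, and 6177, 5358 and 5305 in Control KD. The 3 groups overlapped almost fully. The 95% interval of the log2 fold change was -0.21 to 0.19 for EloB KD and -0.24 to 0.16 for EloC KD, each over Control KD. A change of VHL mRNA larger than these bounds was thus outside the 95% intervals, and smaller ones were not excluded. Between EloB KD and EloC KD the log2 fold change was 0.03 ± 0.09, with an interval of -0.17 to 0.23.

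Of the prolyl hydroxylases, EGLN1 encodes PHD2, the main sensor of HIF-1alpha, and is itself known as a HIF target. The gene lies on chromosome 1 at 231363751 to 231425044 (minus strand). It had 390, 404 and 397 normalised counts in EloB KD, 312, 462 and 498 in EloC KD, and 185, 265 and 325 in Control KD. EloB KD lay above Control KD in every library, while EloC KD replicate 1 fell below Control KD replicate 3. The log2 fold change in EloC KD was 0.72 ± 0.22, 1.65-fold, and was called (adjusted p 0.0243 in limma). That call was lost without Control KD replicate 1 (log2 0.50), without EloC KD replicate 2 (0.65) or 3 (0.59), or without replicate 3 of every group (0.78). In EloB KD the log2 fold change of 0.66 ± 0.22, with an interval of 0.16 to 1.15, was not called in limma (adjusted p 0.0623). DESeq2 called it (log2 fold change 0.63, adjusted p 0.0303), and so did limma once the replicate block was added (adjusted p 0.00693). Leaving out Control KD replicate 3 gave a log2 fold change of 0.84 and also passed (adjusted p 0.0322). EloB KD over EloC KD gave a log2 fold change of -0.06 ± 0.22 with an interval of -0.56 to 0.43 (adjusted p 0.832), so no difference between the knockdowns was shown for EGLN1.

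EGLN2 and EGLN3 encode PHD1 and PHD3, of which PHD3 is strongly induced by hypoxia in many cell types. EGLN2 (chromosome 19, 40798996 to 40808433, plus strand) had 13.04, 12.5 and 14.2 normalised counts in EloB KD, 32.7, 28.9 and 23.2 in EloC KD, and 6.59, 17.6 and 17.0 in Control KD. EloC KD lay above both other groups in every library. The log2 fold change was 1.09 ± 0.37 in EloC KD (adjusted p 0.0369 in limma), resting on 22 to 33 reads per EloC KD library against 7 to 20 in Control KD. It was no longer called in DESeq2, with quantile scaling, in a fit of the 6 libraries compared, or in most fits that left libraries out: any single EloC KD library, Control KD replicate 1 (log2 fold change 0.66), or replicate 3 of every group. In EloB KD the log2 fold change was 0.06 ± 0.37, with a wide interval of -0.76 to 0.88. EloB KD was below EloC KD (log2 fold change -1.03 ± 0.37, adjusted p 0.0432 in limma), a call lost whichever library of those groups was left out, with log2 fold changes of -0.92 to -1.16. It was also lost without replicate 3 of every group (-1.21), in DESeq2 (-1.09, adjusted p 0.055) and with no filter on low values (-1.03, adjusted p 0.053). In the GENCODE annotation used here 30.6% of the exon bases of EGLN2 are shared on its strand with 2 other genes, one of them the readthrough gene RAB4B-EGLN2, which was listed at 0 in all 18 libraries. How reads in shared exons were assigned is not given in the sources used here, so the level of EGLN2 is uncertain.

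EGLN3 (chromosome 14, 33924231 to 34462774, minus strand) had 827, 696 and 929 normalised counts in EloB KD, 1155, 1142 and 1207 in EloC KD, and 1079, 1070 and 723 in Control KD. EloC KD lay above both other groups, with Control KD replicate 3 the lowest of its group. The log2 fold changes over Control KD were -0.21 ± 0.16 in EloB KD (interval -0.58 to 0.15) and 0.31 ± 0.16 in EloC KD (interval -0.05 to 0.67), and neither was called in limma (adjusted p 0.390 and 0.151). EGLN3 was lower in EloB KD than in EloC KD (log2 fold change -0.52 ± 0.16, adjusted p 0.0233 in limma). This call was lost without EloB KD replicate 2 (log2 -0.41) or without any single EloC KD library, where the log2 fold change was -0.50 to -0.54.

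HIF1AN encodes FIH, the asparaginyl hydroxylase that blocks binding of coactivators to the alpha subunits, and lies on chromosome 10 at 100529072 to 100559998 (plus strand). It had 6028, 4386 and 4900 normalised counts in EloB KD, 4029, 3299 and 3421 in EloC KD, and 5049, 3898 and 3701 in Control KD. Replicate 1 was the highest library in each group, and only EloB KD and EloC KD did not overlap. The log2 fold changes over Control KD were 0.28 ± 0.15 in EloB KD (interval -0.05 to 0.60) and -0.23 ± 0.15 in EloC KD (interval -0.55 to 0.10), neither of them called in limma (adjusted p 0.215 and 0.239). With the replicate block both were called (adjusted p 0.0132 and 0.0207). EloB KD had more HIF1AN than EloC KD (log2 fold change 0.50 ± 0.15, adjusted p 0.0173 in limma), a call lost without EloB KD replicate 1 (log2 0.38), without EloC KD replicate 2 (0.45) or 3 (0.47), or without replicate 3 of every group (0.50).

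**Figure D3:**
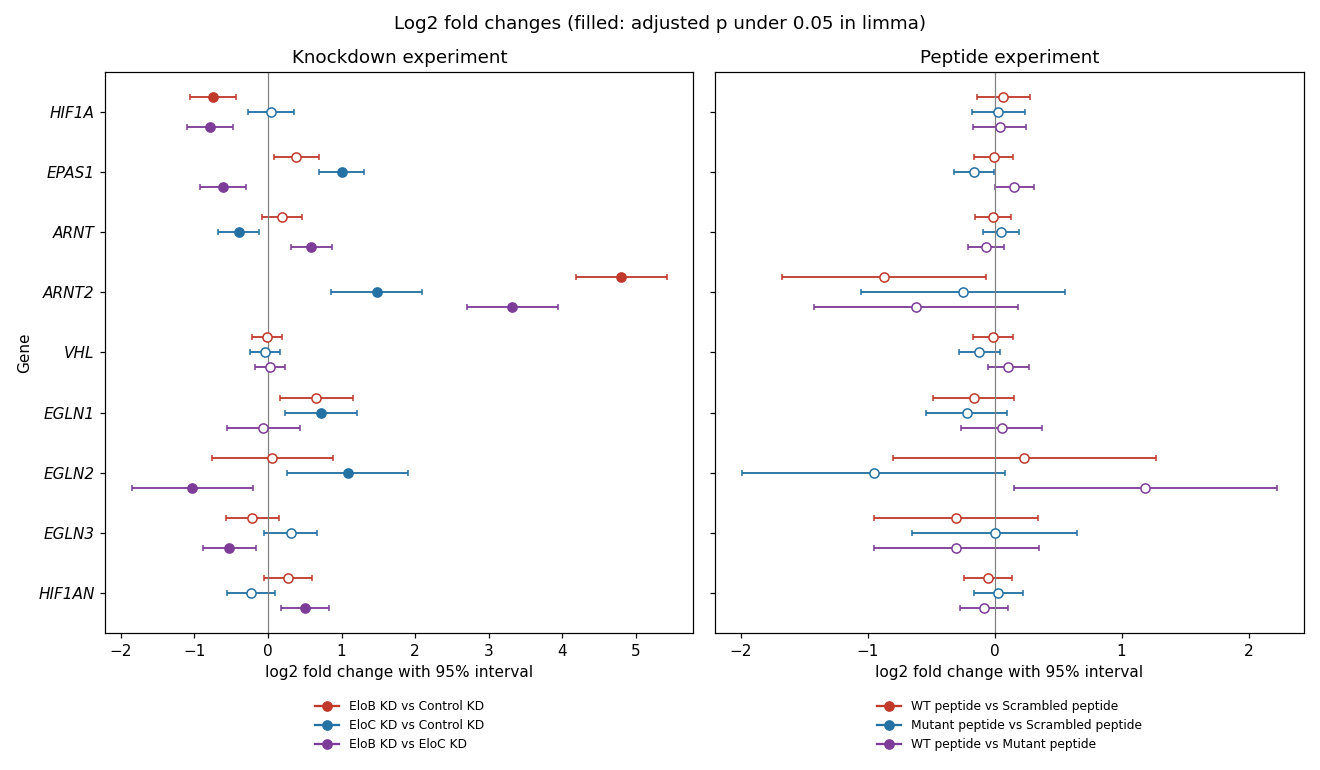
Log2 fold change (horizontal axes) with its 95% interval for the 9 tested genes in 3 knockdown comparisons (left) and 3 peptide comparisons (right), on scales of their own. Filled points had an adjusted p under 0.05 in limma without the replicate block. ARNT2 stands out on the left at 4.80 for EloB KD over Control KD, VHL lies near 0, and no point on the right is filled.

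Counted together, 2 of the 9 tested genes were called in EloB KD against Control KD, 1 higher and 1 lower, where limma called 20.5% of all 13764 genes. With the replicate block 6 were called, against a background of 36.3%, and DESeq2 called 4, against 25.1%. In EloC KD against Control KD 5 of 9 were called, 4 higher and 1 lower, where 42.5% of all genes were called (6 of 9 with the block, against 57.0%, and 4 in DESeq2, against 45.6%). Between EloB KD and EloC KD 7 of 9 were called, 3 higher and 4 lower in EloB KD, with a background of 46.1%, of 22.3% higher and 23.8% lower (also 7 with the block, against 59.4%, and 6 in DESeq2, against 48.9%). The median log2 fold change of the 9 genes was 0.19 in EloB KD and 0.31 in EloC KD over Control KD, beside 0.0035 and 0.0068 over all genes tested. The 3 comparisons share libraries, and the counts are a description of these 9 genes.

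The peptides were compared to ask whether exposure to a BC-box sequence changed the same genes. Without the replicate block, limma called none of the 9 tested genes in any of the 3 peptide comparisons. The background was low as well: 1.43% of 13105 genes were called for WT peptide against Scrambled peptide, 0% for Mutant peptide against Scrambled peptide and 0% for WT peptide against Mutant peptide. At an unadjusted p under 0.05 there was 1 of the 9 genes in each comparison: ARNT2 for WT peptide over Scrambled peptide, EPAS1 for Mutant peptide over Scrambled peptide, and EGLN2 for WT peptide over Mutant peptide. Neither edgeR nor DESeq2 called any of the 9. With the replicate block, limma called 0 of the 9 for WT peptide and 2 for Mutant peptide, each against Scrambled peptide. It called 1 for WT peptide against Mutant peptide. Of all genes the block gave 16.2%, 8.30% and 4.09% in these comparisons, so the low background depends on leaving the pairing by replicate number out. Over all genes 1142 had an unadjusted p under 0.05 for Mutant peptide over Scrambled peptide and 898 for WT peptide over Mutant peptide. For these 2 comparisons edgeR also called 0 genes, and DESeq2 called 184 and 62.

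**Figure D4:**
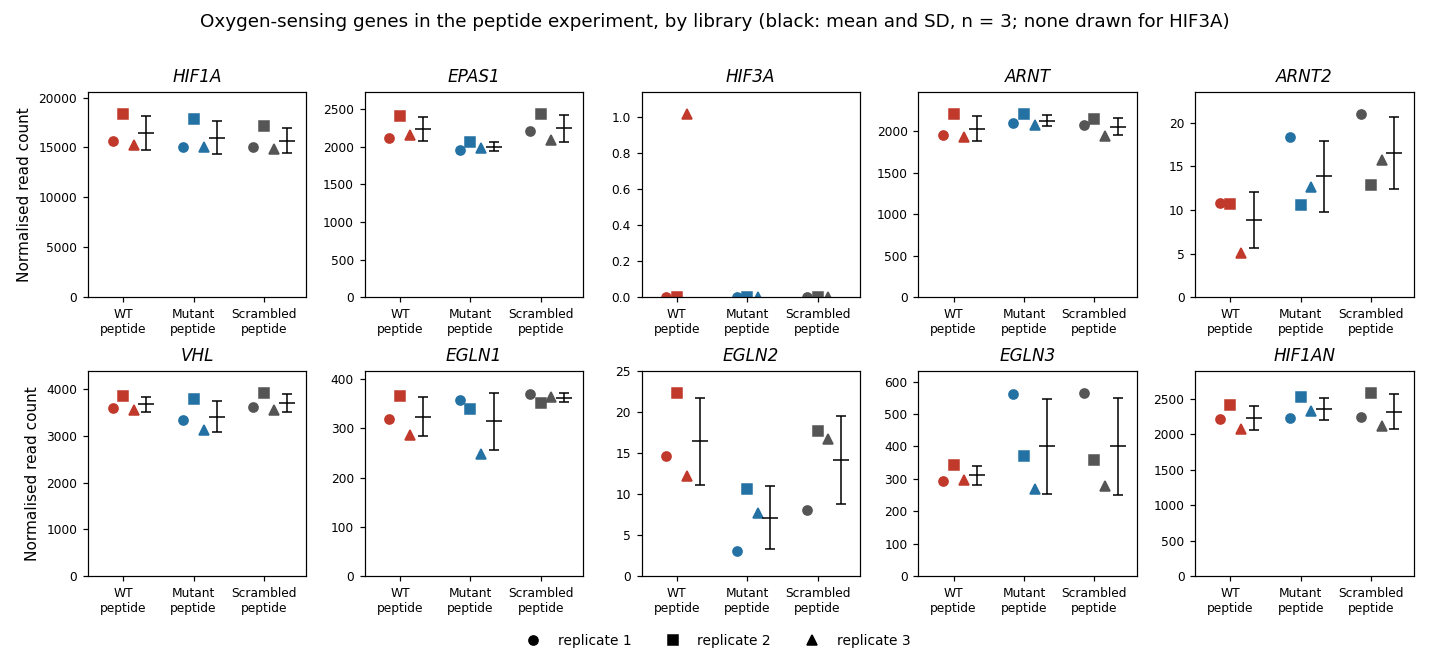
Normalised read count (vertical axes, linear and starting at 0, a scale for each gene) of the 10 genes in the 3 libraries each of WT peptide, Mutant peptide and Scrambled peptide; symbols are replicates and black bars the mean and SD. The groups overlap for most genes, ARNT2 is lowest with WT peptide at 5.09 to 10.8, and EPAS1 is lowest with Mutant peptide at 1962 to 2065.

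HIF1A had 15630, 18383 and 15281 normalised counts with WT peptide, 15028, 17877 and 15044 with Mutant peptide, and 15021, 17100 and 14851 with Scrambled peptide. Replicate 2 was the highest library of each group. The 95% interval of the log2 fold change was -0.14 to 0.28 for WT peptide and -0.18 to 0.24 for Mutant peptide, each over Scrambled peptide. EPAS1 had 2122, 2414 and 2156 normalised counts with WT peptide, 1962, 2065 and 1978 with Mutant peptide, and 2214, 2439 and 2084 with Scrambled peptide. Mutant peptide was the lowest group, and its range did not overlap either of the others. The log2 fold change of EPAS1 was -0.16 ± 0.07 for Mutant peptide over Scrambled peptide (adjusted p 0.543 in limma) and 0.15 ± 0.07 for WT peptide over Mutant peptide (adjusted p 0.733). With the replicate block both passed (adjusted p 0.0228 and 0.0462), where 8.30% and 4.09% of all genes did. For WT peptide over Scrambled peptide the interval was -0.16 to 0.15.

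ARNT2 was close to the limit of detection in the peptide experiment. It had 10.8, 10.7 and 5.09 normalised counts with WT peptide, 18.4, 10.6 and 12.6 with Mutant peptide, and 21.0, 12.8 and 15.8 with Scrambled peptide. WT peptide lay below Scrambled peptide in every library, on 5 to 21 reads per library in these 2 groups. The log2 fold change of WT peptide over Scrambled peptide was -0.87 ± 0.36, with an interval of -1.67 to -0.07 (unadjusted p 0.0366, adjusted p 0.328 in limma), and did not pass. For ARNT the same comparison gave an interval of -0.16 to 0.12.

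VHL had 3611, 3868 and 3551 normalised counts with WT peptide, 3338, 3785 and 3134 with Mutant peptide, and 3630, 3933 and 3568 with Scrambled peptide. WT peptide and Scrambled peptide overlapped, with an interval of -0.17 to 0.15 for the log2 fold change between them. Mutant peptide over Scrambled peptide gave -0.12 ± 0.07 (adjusted p 0.714 in limma, and 0.0492 with the replicate block). EGLN1 averaged 324 ± 40.3 normalised counts with WT peptide, 314 ± 58.5 with Mutant peptide and 362 ± 8.88 with Scrambled peptide, and EGLN3 averaged 311 ± 28.8 with WT peptide, 400 ± 148 with Mutant peptide and 400 ± 149 with Scrambled peptide. In EGLN3 the spread came from replicate 1, at 561 with Mutant peptide and 566 with Scrambled peptide but 292 with WT peptide. HIF1AN averaged 2230 ± 167 with WT peptide, 2359 ± 154 with Mutant peptide and 2316 ± 241 with Scrambled peptide. EGLN2 had 14.7, 22.4 and 12.2 normalised counts with WT peptide, 3.06, 10.6 and 7.74 with Mutant peptide, and 8.002, 17.7 and 16.7 with Scrambled peptide, and its log2 fold change of 1.19 ± 0.46 for WT peptide over Mutant peptide did not pass (adjusted p 0.667 in limma). EGLN2 had the widest range of group means of the 9 genes there, and the genes most like it over the 9 libraries were RAB3IL1, MEN1, BRPF1, AGAP4 and AKT1S1 (Pearson r 0.943 to 0.963, a description at low counts).

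The neighbours of these genes in the pathway were followed through 4 lists. They were written from textbook knowledge, but with earlier results of these data known, so their counts are descriptions. The first list held 12 genes of the VHL ligase, the Elongin complex and the CUL5 ligase, the last through CUL5 and RNF7. Against Control KD, 1 was higher and 2 lower in EloB KD, and 2 were higher and 2 lower in EloC KD. With the replicate block 6 were higher and 2 lower in EloC KD, where 28.7% of all genes were higher and 28.3% lower. The list includes the targeted genes, and limma called 20.5% of all genes in EloB KD and 42.5% in EloC KD. Apart from the targeted genes these were the ubiquitin-conjugating enzymes UBE2D1 (log2 fold change 0.51 ± 0.11) and UBE2D2 (-0.39 ± 0.10) in EloB KD. In EloC KD they were ELOA, the elongation factor subunit of Elongin (-0.73 ± 0.10), RNF7, the RING protein of the CUL5 ligase (0.62 ± 0.13), and UBE2D3 (0.32 ± 0.10). In the peptide comparisons 0 of 12 were called by limma and 0 with the block, with medians between 0.01 and 0.04; the smallest adjusted p was that of NEDD8 for WT peptide over Scrambled peptide, 0.5 in limma.

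Other bHLH-PAS genes, the family to which the alpha and beta subunits belong, gave 2 higher and 4 lower of 15 tested in EloB KD and 5 higher and 2 lower in EloC KD, each against Control KD. Over all genes limma called 9.34% higher and 11.2% lower in EloB KD, and 21.3% higher and 21.2% lower in EloC KD. With the replicate block 2 were higher and 5 lower in EloB KD, where 17.5% of all genes were higher and 18.8% lower. In EloC KD the block gave 6 higher and 2 lower, beside 28.7% and 28.3% of all genes. The circadian activators NPAS2 and CLOCK fell in both, NPAS2 by 0.79 in EloB KD and by 1.02 in EloC KD and CLOCK by 0.63 in EloB KD and by 0.88 in EloC KD on the log2 scale; both comparisons use the same Control KD libraries. ARNTL, which encodes their partner BMAL1, rose (log2 fold change 0.37 ± 0.10 in EloB KD and 1.01 ± 0.10 in EloC KD), and more so in EloC KD (EloB KD over EloC KD -0.63 ± 0.10, adjusted p 0.000483 in limma). NPAS3, a neuronal bHLH-PAS factor, rose 2.93-fold in EloB KD, with 303 ± 55.6 against 103 ± 23.4 normalised counts. PER1 averaged 421 ± 66.5 normalised counts in EloB KD, 1108 ± 122 in EloC KD and 576 ± 20.2 in Control KD. Its log2 fold change was 0.94 ± 0.14 for EloC KD over Control KD (adjusted p 0.000435 in limma). EloB KD over EloC KD gave -1.40 ± 0.14 for PER1 (adjusted p 3.4e-05 in limma). With the peptides 0 of 14 were called by limma. The block gave 2 lower and 0 higher for WT peptide over Scrambled peptide, where 8.23% of all genes were lower. It gave the same counts for Mutant peptide over Scrambled peptide (4.59% of all genes were lower), and 0 for WT peptide over Mutant peptide. For WT peptide over Scrambled peptide the circadian repressor PER1 stood at a log2 ratio of -0.36 ± 0.08 (adjusted p 0.0741 in limma, not called, and 0.000333 with the block). Mutant peptide over Scrambled peptide gave -0.36 ± 0.08 for PER1 (adjusted p 0.182 in limma, not called, and 0.00107 with the block).

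Of 20 regulators of HIF stability and activity, 2 were higher and none lower in EloB KD (4 higher and 2 lower with the block), and 4 were higher and 5 lower in EloC KD (the block gave 4 and 8). The shares of all genes were those given for the bHLH-PAS list in limma, and with the block 17.5% higher and 18.8% lower in EloB KD and 28.7% higher and 28.3% lower in EloC KD. CITED2, which competes with HIF for the coactivators p300 and CBP, was higher in both. It averaged 1969 ± 227 normalised counts in EloB KD and 3272 ± 567 in EloC KD, against 1314 ± 196 in the Control KD libraries that both share, a rise of 1.5-fold in EloB KD and of 2.48-fold in EloC KD. OS9, known to bind HIF-1alpha and its hydroxylases, rose in EloB KD (log2 fold change 0.56 ± 0.09). In EloC KD the coactivator CREBBP (0.58 ± 0.10) and the ubiquitin ligase SIAH2, which targets prolyl hydroxylases (0.77 ± 0.13), rose and COMMD1 fell by 0.90 ± 0.15 on the log2 scale. In the 3 peptide comparisons limma called 0 of the 20. With the block 1 was higher and 2 were lower for WT peptide over Scrambled peptide, where 7.96% of all genes were higher and 8.23% lower. For Mutant peptide over Scrambled peptide the block gave 2 lower, beside 4.59% of all genes. For WT peptide over Mutant peptide 0 passed. CITED2 stood at a log2 ratio of -0.36 ± 0.12 for WT peptide over Scrambled peptide (adjusted p 0.222 in limma, 0.00206 with the block). Mutant peptide over Scrambled peptide gave -0.42 ± 0.12 for CITED2 (adjusted p 0.317 in limma, 0.00142 with the block).

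Genes that HIF is known to switch on gave calls in both directions in the knockdowns. In EloB KD 3 of 43 tested were higher and 6 lower. The block gave 5 higher and 12 lower, where 17.5% of all genes were higher and 18.8% lower, and the median log2 fold change was -0.05. In limma the shares over all genes were 9.34% higher and 11.2% lower. AK4 (-1.04 ± 0.11), a mitochondrial adenylate kinase, HK1 (-0.77 ± 0.10), a hexokinase, and CA12 (-0.56 ± 0.13), a carbonic anhydrase, fell in EloB KD, and the collagen prolyl hydroxylase P4HA2 rose (0.57 ± 0.12). In EloC KD 6 of 43 were higher and 16 lower, with a median of -0.14, where 21.3% of all genes were higher and 21.2% lower. With the block 8 were higher and 17 lower, beside 28.7% and 28.3% of all genes. The chemokine receptor CXCR4 rose 5.05-fold and the heme oxygenase HMOX1 4.08-fold in EloC KD, while the glycogen synthase GYS1 fell 2.83-fold and the MYC antagonist MXI1 2.62-fold.

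With WT peptide over Scrambled peptide, limma called 1 of the 43 HIF targets: GYS1 was lower, at 2377 ± 46.0 against 3019 ± 131 normalised counts (log2 fold change -0.34 ± 0.05, adjusted p 0.0142), where 0.595% of all genes were called lower and 0.839% higher. With the replicate block 21 of 43 were lower and none higher, against a background of 8.23% lower and 7.96% higher. The transcriptional repressor BHLHE40 (log2 fold change -0.44 ± 0.10), the mitophagy receptor BNIP3L (-0.35 ± 0.09) and the pyruvate dehydrogenase kinase PDK1 (-0.35 ± 0.09) were not called in limma (adjusted p 0.0803, 0.102 and 0.109) and passed with the block (adjusted p 4.12e-05, 0.00216 and 0.00146). The median of the list was -0.17, beside 0.0001 over all genes. For Mutant peptide over Scrambled peptide 0 of 43 were called by limma and 4 were lower with the block (4.59% of all genes were), with a median of -0.06. Among them was HMOX1, at a log2 fold change of -0.65 ± 0.17 (adjusted p 0.233 in limma, 0.000494 with the block). For WT peptide over Mutant peptide 0 were called by limma, and 1 was higher and 9 were lower with the block (2.40% of all genes were higher and 1.69% lower), with a median of -0.12. The higher gene was HMOX1, at 0.77 ± 0.17 (adjusted p 0.39 in limma, 0.000314 with the block).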

How the data were processed

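Libraries were made from total RNA with a stranded mRNA kit, per the labels' protocols. The submitters' processing notes name hg38, featureCounts and DESeq2 without versions; the aligner, gene annotation and strand setting are not given in the sources used here. For each experiment the authors deposited 1 table of signal values, which are read counts per gene divided by a DESeq2 size factor of the library. They also deposited log2 fold changes and adjusted p-values of 4 comparisons; in 2 of these tables the fold change column holds other content, spreadsheet error text, for some genes. These tables were used in no test.

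The 10 genes and the lists were chosen with earlier results of these data known. Log2 of the normalised count plus 1 was fitted with limma 3.58.1 (intensity trend, R 4.3.3) for the genes that averaged 10 or more across the 9 libraries of a table (13764 knockdown, 13105 peptide), with 1 estimate of the spread for the 3 groups and 2-sided tests. Fold changes are on that scale, which understates changes of low genes. Exact permutation of 3 against 3 libraries has a smallest p of 0.1, so the model was used for each gene. Dividing by the smallest step of each library recovered whole reads for 100% of values within 0.05 reads; these gave the depths and the edgeR 4.0.16 (quasi-likelihood) and DESeq2 1.42.0 alternatives. Other alternatives were TMM and quantile scaling, pseudocounts, filters, a fit of only 6 libraries, a replicate block, and leaving out libraries. The code was tested on simulated data.

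Same-number libraries deviated together from their group means: r was 0.236 to 0.566 for knockdown pairs and 0.254 to 0.715 for peptide pairs, against -0.439 to 0.0703 and -0.546 to 0.336 for other pairs. The numbers therefore pair the samples, a pairing that comes from the data and not from the labels. Standard errors, intervals and limma calls are from the fit without this pairing unless the block is named. The blocked value is given where it changes a call of the 9 tested genes. Of the 20365 genes, 20218 were matched to GENCODE release 29 (GRCh38) for positions and exon lengths, and promoters are from RefSeq (GRCh38.p14). The counts were made with an annotation that is not given, so values per kb and shares of exon bases may rest on other gene models. The named genes are the 10 genes, both targeted genes, at most 4 genes per list and comparison with the smallest adjusted p, and the 5 genes most like the gene of widest range in each experiment. At these depths counting error matters mainly for ARNT2, EGLN2 and HIF3A.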

Additional observations from a re-analysis of the deposited data

Results flagged for a closer look

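The effect of knockdown, measured over the same Control KD libraries, differed between EloB KD and EloC KD for 7 of the 9 tested genes, by the test of EloB KD against EloC KD itself (adjusted p under 0.05 in limma, where 46.1% of all genes passed). Log2 values here are EloB KD over EloC KD. ARNT2 differed by 3.32 and was higher in EloB KD in 3 of 3 libraries. ARNT differed by 0.59 and HIF1AN by 0.50, both higher in all 3 EloB KD libraries than in any EloC KD library. HIF1A differed by -0.79 and EPAS1 by -0.61, both lower in all 3 EloB KD libraries. EGLN3 differed by -0.52 and EGLN2 by -1.03, also without overlap of the groups. This separation of libraries is read from the values that the test used, so it is not added support. Its share over all genes was not counted. The EGLN2 call was lost without any one of the 6 libraries, in DESeq2 (adjusted p 0.055) and with no filter on low values (adjusted p 0.053). The calls of EGLN3 and HIF1AN were lost when certain single libraries were left out. Those of ARNT2, ARNT, HIF1A and EPAS1 were kept in every alternative tried.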

How the results depend on the processing

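Of the called values, those of ARNT2 and EPAS1 in EloC KD, of ARNT2 in EloB KD, and of ARNT2, ARNT, HIF1A and EPAS1 between the knockdowns kept their direction and call in every alternative tried. With the replicate block, limma called 4996 genes and 6 of the 9 tested oxygen-sensing genes for EloB KD against Control KD. It then called 2122 genes for WT peptide and 1088 for Mutant peptide, each against Scrambled peptide, and 536 for WT peptide against Mutant peptide, with 0, 2 and 1 of the 9. The calls this changed are given beside each gene, and it changed no other call of the 9. DESeq2 called 3456 genes and 4 of the 9 for EloB KD, and 552, 184 and 62 genes in these 3 peptide comparisons. Without replicate 3 of every group, 1024 genes and 1 of the 9 were called for EloB KD. For EloC KD, that fit called 3922 genes and 2 of the 9. Without replicate 2 of every group, 37 genes were called for Mutant peptide against Scrambled peptide and 21 for WT peptide against Mutant peptide. Leaving out single libraries gave 2 to 5 of the 9 for EloC KD. The fewest came when Control KD replicate 1, EloC KD replicate 2 or EloC KD replicate 3 was the one left out. Calls over all genes fell there too, to between 4495 and 5418, from 5844 with every library. Between the knockdowns, leaving out single libraries gave 4 to 6 of the 9, fewest without EloC KD replicate 2 or 3. It left 5162 to 5638 of all genes called there, against 6343 with every library. It gave 66 to 180 genes for WT peptide, under 100 without WT peptide replicate 1 or 3 or Scrambled peptide replicate 1 or 2, and 0 to 1 for Mutant peptide, each against Scrambled peptide. The cause was not tested.

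Signs turned only for values that were called in none of these alternatives. For EloB KD over Control KD, the log2 fold change of VHL was 0.012 in edgeR, 0.097 with quantile scaling and 0.013 with TMM, and that of EGLN2 was -0.037 in DESeq2, -0.018 in edgeR and -0.32 with quantile scaling. EGLN3 was at 0.029 with quantile scaling for Mutant peptide over Scrambled peptide, and EGLN1 at 0.066 without replicate 3 of every group for EloB KD over EloC KD. With 1 library left out, log2 fold changes over Control KD ran from -0.058 to 0.059 (VHL) and -0.36 to 0.28 (EGLN2) in EloB KD, and from -0.12 to 0.15 (HIF1A) and -0.091 to 0.029 (VHL) in EloC KD. EloB KD over EloC KD gave -0.016 to 0.079 (VHL) and -0.27 to 0.065 (EGLN1). WT peptide over Scrambled peptide gave -0.016 to 0.13 (HIF1A), -0.067 to 0.052 (EPAS1), -0.078 to 0.019 (ARNT), -0.050 to 0.030 (VHL), -0.11 to 0.42 (EGLN2) and -0.11 to 0.030 (HIF1AN). Mutant peptide over Scrambled peptide gave -0.055 to 0.093 (HIF1A), -0.28 to 0.28 (EGLN3) and -0.033 to 0.11 (HIF1AN). WT peptide over Mutant peptide gave -0.044 to 0.12 (HIF1A) and -0.11 to 0.15 (EGLN1).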

Other observations

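A row of both tables named only by the identifier ENSG00000287856 was chosen after its values were seen. It had 43.8, 29.8 and 53.0 normalised counts in EloB KD, 272, 217 and 250.5 in EloC KD, and 196, 174 and 166 in Control KD, so the 3 groups did not overlap. With the peptides it averaged 123 ± 30.1 with WT peptide, 101 ± 4.45 with Mutant peptide and 133 ± 12.9 with Scrambled peptide. It is not annotated in the references used here, so the annotation behind the counts held a gene that GENCODE release 29 lacks.

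In the authors' deposited table for EloB KD against Control KD, EGLN1 passed with an adjusted p of 0.0325 and EPAS1 just missed at 0.0510. In the authors' deposited table for EloC KD against Control KD, EGLN2 had an adjusted p of 0.0592, on the other side of the threshold from the call made here.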
